A study of Homo sapiens with 4 samples.

Results

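The EGF-family ligand genes EGF, TGFA, AREG, EREG, HBEGF and BTC and the receptor genes EGFR, ERBB2, ERBB3 and ERBB4 were examined in Huh7 cells sorted for the surface protein CD133. Huh7 is an established human hepatocellular carcinoma line, and CD133 is the membrane protein encoded by PROM1, used as a marker of tumour-initiating cells. Flow cytometry divided the line into CD133+ cells and CD133- cells, untreated as far as the labels say, and total RNA of each population was measured by array. Each population is present with RMA values (log2 scale) and with MAS5 signals (linear scale). The labels of these columns differ only in the algorithm, and the 4 columns were taken as 2 arrays summarised in both ways and not as replicates, although no label states that the array was the same. The members were chosen by gene symbol: every probe set, a group of short probes for 1 transcript, whose only platform symbol was a member's. This gave 33 of the 54675 probe sets on the array, for 9 of the 10 genes and of 19775 named genes in all. AREG was not analysed here, since no probe set was paired with it.

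EGF-family ligands are made as membrane-anchored precursors, cut free by ADAM proteases, and bind the extracellular part of ERBB receptor tyrosine kinases, which then pair and phosphorylate each other. EGF, TGFA and AREG bind EGFR, while HBEGF, BTC and EREG can also engage ERBB4. ERBB2 has no known ligand of its own and serves as a partner, and ERBB3 has a weak kinase and signals through its partners, mainly to PI3K. In liver, EGFR and ERBB3 are the members best known from hepatocytes, and EGFR ligands are mitogens for these cells during regeneration.

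The sort marker differed as labelled: PROM1 read 10.49 in CD133+ cells and 5.33 in CD133- cells by RMA. All 7 hepatocyte and hepatoma markers were above the brightness floor, with differences from -0.16 to 0.55 on their brightest probe sets. Their other probe sets above the floor ran from -0.75 (TF) to 0.09 (FGB). This floor, an RMA value of 4.86, is the median over all probe sets of the brighter of their values. No detection calls were used, so it sorts probe sets by brightness alone. Of the leukocyte and erythroid markers 3 of 4 measured were above it, and of the endothelial and stromal markers 4 of 8. Their differences ran from -0.25 to 0.23 on the brightest probe sets. PTPRC, CDH5, COL3A1, ACTA2 and DCN were below it in both populations. With 1 array per population no test was possible, and every difference below is CD133+ minus CD133- on the log2 scale without a replicate check. The spread available was that between probe sets of the same gene, an SD of 0.21 over 42459 pairs of probe sets. Over the 16955 pairs above the floor it was 0.17. The wider value of 0.21 is used below. Both values leave out the spread between sorts and arrays. In sorted bulk RNA, fewer cells that express a gene and less of its RNA per cell cannot be told apart.

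EGFR was the member above the floor that differed most, and it was higher in CD133+ cells. Its brightest probe set, 201983_s_at, read 8.62 in CD133+ and 8.05 in CD133- cells, a difference of 0.57 or 1.48-fold. ERBB3 and ERBB2 differed by 0.04 and -0.07 on their brightest probe sets, less than the spread between probe sets. Of the 5 member ligands measured, HBEGF was the only one with a value above the floor, and only in CD133- cells, where its brightest probe set read 4.98 against 4.46. EGF, TGFA, EREG, BTC and ERBB4 were below the floor in both populations on every probe set.

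None of the 4 members above the floor reached 2-fold in either direction. Among all 12899 named genes above the floor, 1.77% did so: 213 genes higher (1.65%) and 15 lower (0.116%). At 1.5-fold the count of members was also 0, against 4.68% of all genes. Counted by MAS5, 1 of 4 members above the MAS5 floor of 91.8, HBEGF, was at least 2-fold lower in the signals as measured, where 4.47% of 12251 genes were higher and 1.71% lower by that much. Its CD133+ signal was below that floor, and with the floor in its place the fold was only 1.29. The median difference of the 4 members was -0.02, beside -0.01 over all genes above the floor. HBEGF entered the 4 by RMA only through CD133- cells, where it read higher. At a floor at the 75th percentile, which leaves HBEGF out, the median of 3 members was 0.04.

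**Figure D1:**
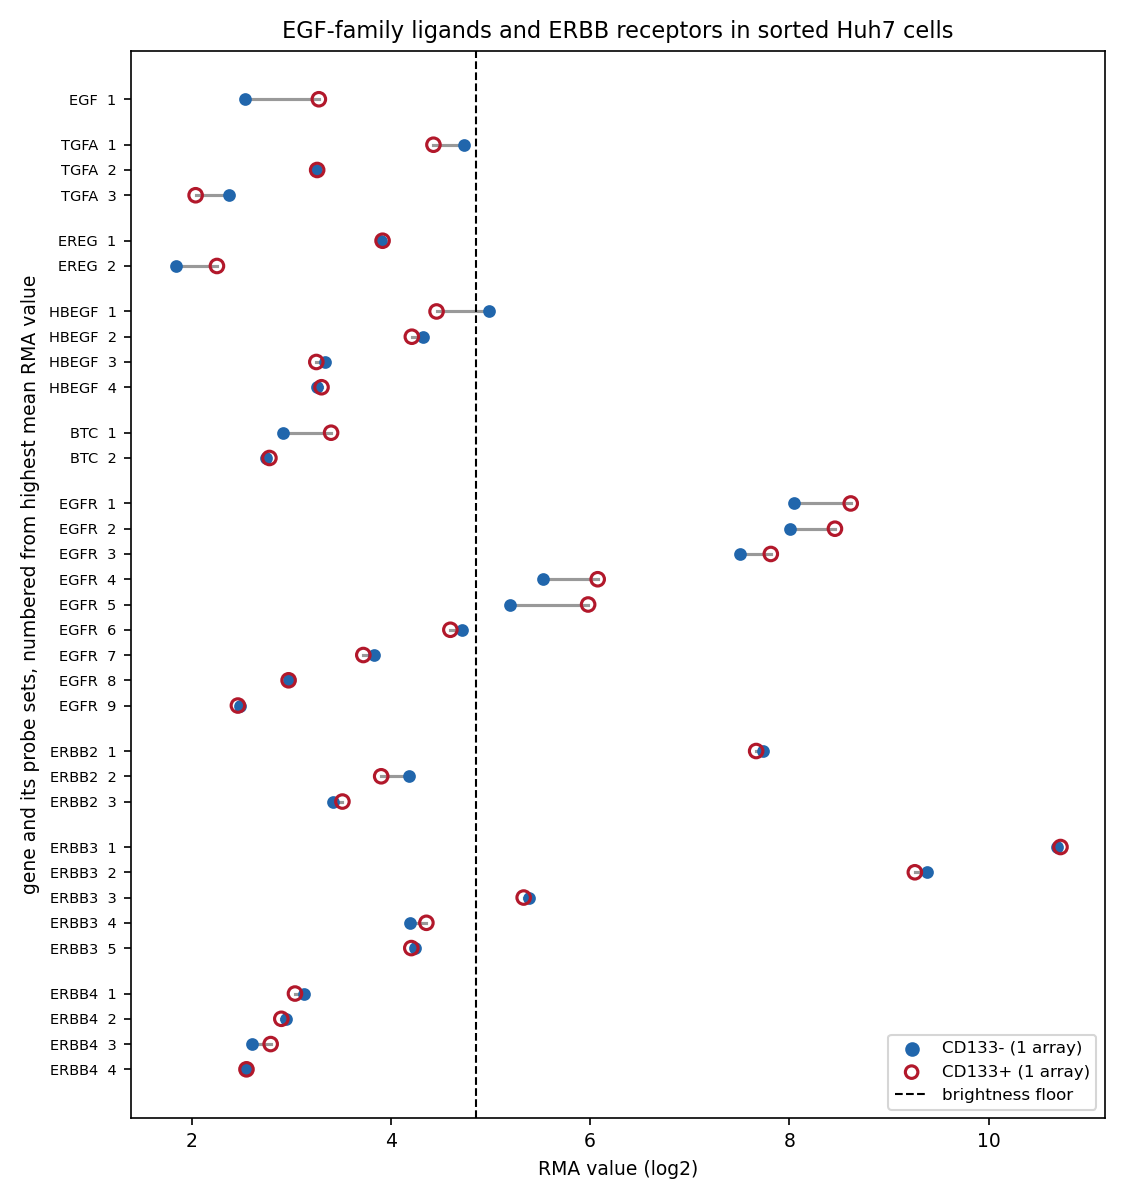
RMA values (log2, horizontal axis) of the 33 member probe sets, grouped by gene on the vertical axis, in CD133- cells (filled blue) and CD133+ cells (open red), 1 array each, with no error bars since no array was repeated. The dashed line is the floor of 4.86. The 5 EGFR probe sets above it lie to the right in CD133+ cells, while those of ERBB2 and ERBB3 above it nearly coincide. Positions of different probe sets reflect probe affinity as well as RNA and give no order of genes.

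The DNA before the start of the members above the floor is shown here so that the genes behind the receptor and ligand values can be placed. Sequences are from RefSeq on GRCh38.p14, each read on the gene's own strand from 5′ to 3′. A window is the 250 bases before the gene's most upstream listed start. EGFR had 2 listed starts, and ERBB2 and HBEGF had 1 each. Starts further downstream were not searched, so a window need not be the promoter used in these cells. Of the 10 members, 9 had such a window. ERBB3 had none. Capitals mark GC boxes (GGGCGG) and CCAAT boxes (CCAAT), searched together with TATAAA on both strands. Overlapping matches were counted separately.
EGFR, chr7:55018767-55019016, plus strand: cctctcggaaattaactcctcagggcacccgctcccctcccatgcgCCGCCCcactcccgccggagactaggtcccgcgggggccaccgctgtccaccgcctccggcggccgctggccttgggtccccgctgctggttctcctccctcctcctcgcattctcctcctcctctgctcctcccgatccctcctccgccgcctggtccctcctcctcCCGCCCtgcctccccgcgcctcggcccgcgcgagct
ERBB2, chr17:39687844-39688093, plus strand: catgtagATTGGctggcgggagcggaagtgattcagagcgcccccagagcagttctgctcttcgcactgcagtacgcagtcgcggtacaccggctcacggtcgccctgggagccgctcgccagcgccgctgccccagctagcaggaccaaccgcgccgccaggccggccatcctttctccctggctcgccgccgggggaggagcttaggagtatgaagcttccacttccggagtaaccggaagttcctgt
HBEGF, chr5:140346604-140346853, minus strand: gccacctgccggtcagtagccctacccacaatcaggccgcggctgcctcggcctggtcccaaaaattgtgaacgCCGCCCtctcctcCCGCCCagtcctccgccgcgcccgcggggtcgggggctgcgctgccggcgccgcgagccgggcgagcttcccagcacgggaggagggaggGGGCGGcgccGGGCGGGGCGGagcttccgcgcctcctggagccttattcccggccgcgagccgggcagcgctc

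The EGFR window held 2 GC boxes and the HBEGF window 5, with a G and C content of 73.6% and 76.4%. Of 27305 gene windows of this length, 42.2% held at least 1 GC box, and the median G and C content was 57.6%. The ERBB2 window held no GC box and 1 CCAAT box, a motif found in 33.0% of all windows. None of these 3 windows held TATAAA, which 11.2% of all windows did. Among the members below the floor, EREG had a TATAAA match and 2 CCAAT boxes, TGFA had 3 GC boxes, and EGF had 1 CCAAT box and no GC box. GC boxes thus occurred in windows of members above the floor and of TGFA below it. This floor sorts probe sets by brightness and not genes by their RNA. These matches describe letters and no binding was measured.

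EGFR, the receptor of EGF and TGFA, had 9 probe sets, and the 5 above the floor were above it in both populations. All 5 were higher in CD133+ cells, by 0.31 to 0.78, with a mean of 0.53 ± 0.18 (SD over 5 probe sets, which share the same RNA and are not replicates). Probe set 224999_at read 8.46 in CD133+ and 8.01 in CD133- cells, a difference of 0.45. Probe set 201984_s_at read 7.81 and 7.51, the smallest of the 5 differences, 0.31. The dimmer 210984_x_at read 6.08 and 5.52, a difference of 0.55. The largest difference, 0.78, was that of 211607_x_at, at 5.98 and 5.20. Of the 5 names, all but that of 224999_at carry _s_at or _x_at, marks of probe sets that can match several transcripts. Its difference of 0.45 is that of the brightest EGFR probe set without such a mark.

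The other 4 EGFR probe sets were below the floor and did not show this difference. All of them but 1565484_x_at lack the _s_at and _x_at marks. Probe set 211551_at read 4.60 in CD133+ and 4.71 in CD133- cells, and 211550_at read 3.72 and 3.83. Probe set 1565483_at read 2.97 in both, and 1565484_x_at read 2.47 and 2.49. Averaged over all 9 probe sets, the EGFR difference was 0.27.

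MAS5 gave the same direction for all 5 EGFR probe sets above the RMA floor. The signals of 201983_s_at were 1944 in CD133+ and 1337 in CD133- cells, 1.45-fold. Those of 224999_at were 2363 and 1697, 1.39-fold, and those of 201984_s_at 997 and 843, 1.18-fold. The 210984_x_at signal of 178 in CD133+ cells stood against 48.1 in CD133- cells. The latter is below the MAS5 floor, set by the same rule. With the floor in its place the MAS5 fold was 1.94, while RMA gave 1.47-fold for this probe set. For 211607_x_at both signals, 67.2 and 15.5, were below that floor. If both algorithms read the same arrays, as assumed here, MAS5 is a check on the summary of probes and not on the cells.

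Set among the 12899 genes above the floor, 488 genes (3.78%) had a larger positive difference than EGFR. EGFR thus lay in the upper tail of the distribution but inside the 2-fold limits. Of the 6042 genes with at least 2 probe sets above the floor, 6.21% were higher on every such probe set by more than 0.21. Of the 359 genes with at least 5, 8 were (2.23%), and EGFR was among them. Every such probe set was lower by this margin for 4.65% of the 6042. This count was chosen after the EGFR values were seen and is a description. The genes nearest to EGFR in their pair of RMA values were PVR (8.65 and 8.05), a nectin-like adhesion receptor, JUP (8.60 and 7.99), the junction protein plakoglobin, and ACOT9 (8.54 and 8.06), a mitochondrial acyl-CoA thioesterase. The likeness is the distance over 2 arrays, 0.04, 0.06 and 0.08 on the log2 scale, and thus rests on 1 difference and 1 level.

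**Figure D2:**
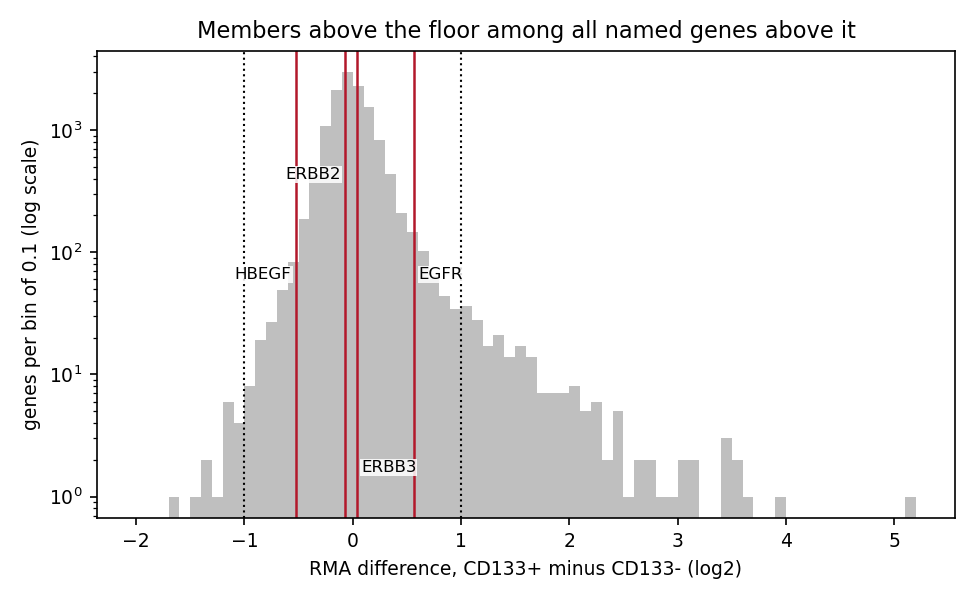
Distribution of the RMA difference (CD133+ minus CD133-, log2, horizontal axis) over the 12899 named genes above the floor (grey bars, genes per bin of 0.1 on a log axis), with the 4 members above it as red lines. Dotted lines mark 2-fold. HBEGF (-0.53) and EGFR (0.57) lie on opposite flanks, and ERBB2 (-0.07) and ERBB3 (0.04) near the centre. HBEGF was above the floor only in CD133- cells, where it read higher, so its place here depends on the filter.

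ERBB3, the receptor partner with a weak kinase, was above the floor on 3 of its 5 probe sets, and the populations were close on each by RMA. The brightest, 226213_at, read 10.72 in CD133+ and 10.69 in CD133- cells. Probe set 202454_s_at read 9.26 and 9.38, a difference of -0.12, and 1563253_s_at read 5.33 and 5.39, a difference of -0.05. The signs thus differed between probe sets, with a mean of -0.04 ± 0.08 (SD over 3 probe sets). MAS5 signals of 226213_at were 8211 and 7819, 1.05-fold. The 2 probe sets below the RMA floor differed by 0.17 and -0.03 by RMA.

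ERBB2, the receptor without a known ligand, had 1 probe set above the floor, 216836_s_at. It read 7.67 in CD133+ and 7.73 in CD133- cells, and its MAS5 signals were 664 and 732, a difference of -0.14. The others were below the floor: 210930_s_at read 3.90 and 4.19, and 234354_x_at read 3.51 and 3.42. The 210930_s_at signals by MAS5, 35.6 and 5.44, were higher in CD133+ cells, the opposite of its RMA direction. Both lay below the MAS5 floor.

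ERBB4, the receptor shared by neuregulins and part of the EGF-like ligands, was below the floor on all 4 probe sets. Its highest RMA value was 3.13. The differences ran from -0.09 to 0.18 by RMA and from -3.23 to 2.73 by MAS5. In MAS5 signals, 206794_at read 5.42 in CD133+ and 50.8 in CD133- cells, and 214053_at 27.2 and 4.08. These large MAS5 differences had opposite signs within the same gene, and all 8 ERBB4 signals were below the MAS5 floor.

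Among the ligands, HBEGF, a heparin-binding ligand of EGFR and ERBB4, was lower in CD133+ cells on its brightest probe set. Probe set 38037_at read 4.46 in CD133+ and 4.98 in CD133- cells, a difference of -0.53. The CD133+ value was below the floor, and with the floor in its place it was 1.09-fold lower. By MAS5 the signals were 48.1 and 118, or 1.29-fold lower with the MAS5 floor in place of the CD133+ signal. Probe set 203821_at, above the MAS5 floor in both populations, read 95.3 and 100.5 by MAS5 and 4.21 and 4.33 by RMA. It did not show a difference of that size. The remaining probe sets, 244857_at and 222076_at, differed by -0.09 and 0.04 by RMA. By MAS5 both were higher in CD133+ cells, by 0.88 and 0.83, with all signals below the MAS5 floor. Averaged over its 4 probe sets, HBEGF differed by -0.17.

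EGF, which gives the family its name, had a single probe set, 206254_at, with RMA values of 3.28 in CD133+ and 2.54 in CD133- cells. The difference was 0.74, with both values below the floor. The MAS5 signals were 76.3 and 4.46, a difference of 4.10, also below the MAS5 floor in both. TGFA, made by many carcinomas as a ligand of EGFR, was lower in CD133+ cells on 2 of 3 probe sets: 205015_s_at read 4.43 and 4.73, and 205016_at read 2.04 and 2.38. The third, 211258_s_at, read 3.26 and 3.25. All TGFA signals were below the MAS5 floor, and all 3 were lower in CD133+ cells by MAS5, by 0.30 to 1.59. No fold is given for genes below the floor in both populations.

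BTC, or betacellulin, and EREG, or epiregulin, belong to a run of neighbouring protein-coding genes on chromosome 4, in the order EPGN, EREG, AREG and BTC (RefSeq, GRCh38.p14). BTC read 3.40 in CD133+ and 2.92 in CD133- cells on 241412_at and 2.78 and 2.74 on 207326_at. EREG read 3.92 and 3.90 on 1569583_at and 2.25 and 1.84 on 205767_at. All 4 differences were positive by RMA, from 0.01 to 0.49. By MAS5 each gene had 1 probe set higher and 1 lower in CD133+ cells, and all signals were below the MAS5 floor.

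Across the 33 member probe sets, none reached 2-fold by RMA and 9 did by MAS5. Of the 21 member probe sets below the MAS5 floor in both populations, 7 (33.3%) differed at least 2-fold by MAS5. On the whole array, 43% of probe sets below that floor did so. Of the 12 above it in at least 1 population, 2 did in the signals as measured, 210984_x_at of EGFR and 38037_at of HBEGF, against 6.81% of such probe sets on the array. Both had their dimmer signal below the floor. With the floor in its place they differed by 1.94-fold and 1.29-fold, under 2-fold. The direction by MAS5 was opposite to that by RMA for 1 of the 10 member probe sets above the RMA floor and for 8 of the 23 below it.

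**Figure D3:**
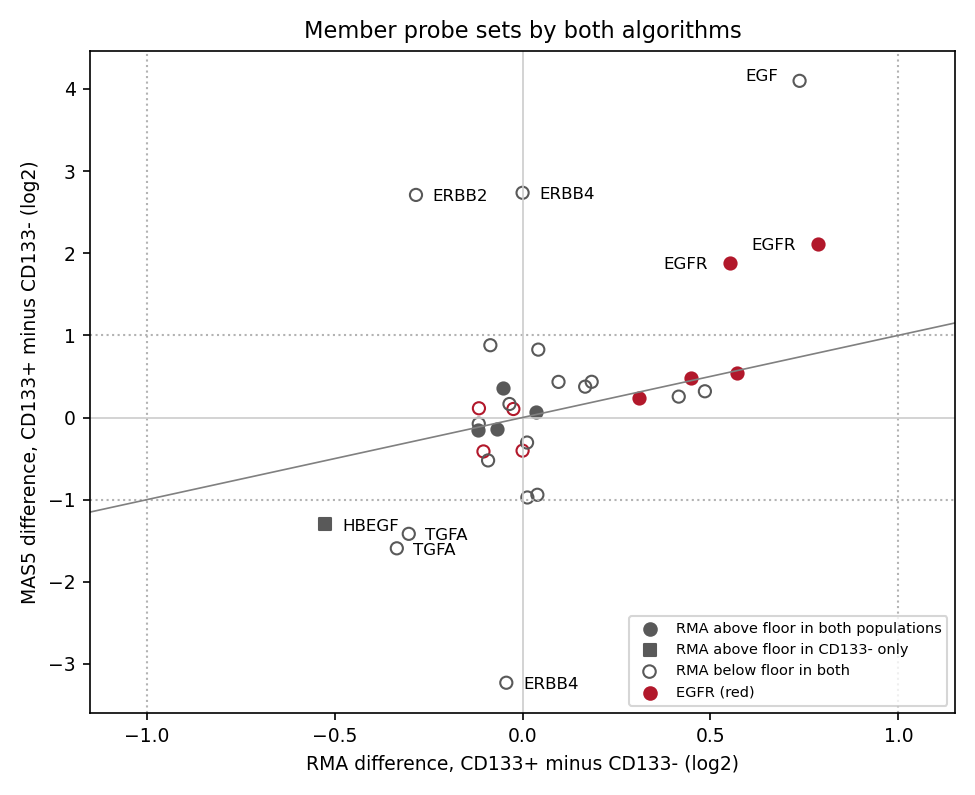
Difference CD133+ minus CD133- by MAS5 (log2, vertical axis) against that by RMA (log2, horizontal axis) for the 33 member probe sets, 1 point each. Filled points were above the RMA floor, open points below it, EGFR is red, dotted lines mark 2-fold and the grey line equality. The 5 filled EGFR points lie in the upper right, and the points far from the line are mostly open, with EGF at 4.10 and ERBB4 at -3.23 and 2.73 by MAS5.

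The genes around the members differed little. The 6 pathway lists covered other ligands, ligand shedding, adaptors, negative regulators, the RAS-ERK cascade and the PI3K-AKT arm. Of their 64 genes, 53 had a probe set of their own and 50 were above the floor. None of the 50 reached 2-fold, against 1.77% of all genes above the floor, and 1 reached 1.5-fold, against 4.68%. Of the 50, 23 had a positive and 25 a negative difference, with a median of 0.00, beside -0.01 over all genes. For 44 of them (88%) the difference was under the spread of 0.21, as for 71.3% of all genes above the floor.

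The gene past 1.5-fold was NRG1, the neuregulin that binds ERBB3 and ERBB4. Its brightest probe set, 206343_s_at, read 6.32 in CD133+ and 5.46 in CD133- cells, a difference of 0.85 or 1.81-fold, and MAS5 signals of 456 and 213. The other NRG1 probe set above the floor, 208232_x_at, read 5.85 and 5.76, a difference of 0.09, while its MAS5 signals were 109.6 and 54.6, the latter below the MAS5 floor. The 4 below the floor differed by -0.06 to 0.24. NRG2 read 4.95 and 5.01. NRG3 and NRG4 were below the floor.

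Ligand shedding genes were mostly close in both populations on their brightest probe sets. Of 10 listed genes, 9 were above the floor, 3 with a positive and 6 with a negative difference, and the median was -0.01. ADAM17, the main sheddase of TGFA, AREG and HBEGF, read 8.01 in CD133+ and 8.05 in CD133- cells. ADAM10, which cuts EGF and BTC, read 9.91 and 10.01. RHBDF1, a rhomboid-like regulator of ADAM17, was highest, with 6.30 and 5.96, a difference of 0.34, while a second, dimmer probe set under the floor differed by -0.09. ADAM19 was lowest at -0.11. FRMD8 was higher in CD133+ cells on all 4 of its probe sets, each above the floor, by 0.11 to 0.39.

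Adaptors and proximal effectors had 12 of 13 genes with a probe set, all above the floor, with 7 positive and 5 negative differences and a median of 0.03. SHC1, which couples phosphorylated receptors to GRB2 and RAS, was highest. Its brightest probe set read 9.66 in CD133+ and 9.36 in CD133- cells, a difference of 0.31, and its other probe set above the floor differed by 0.44. PTPN11, the phosphatase SHP2, was lowest at -0.14, with its other probe sets above the floor running from -0.23 to 0.42. GRB2 differed by 0.05 on its brightest probe set and by 0.18 and 0.22 on its 2 others above the floor.

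The 15 negative regulators were all above the floor, 6 with a positive and 9 with a negative difference, and a median of -0.04. The extremes were SPRY4, a Sprouty inhibitor of RAS-ERK signalling, at 7.22 in CD133+ and 7.52 in CD133- cells (-0.30), and LRIG3, of a family of transmembrane modulators of receptor turnover, at 7.38 and 7.17 (0.21). ERRFI1, the feedback inhibitor MIG6 that binds the EGFR kinase, differed by -0.06. The ubiquitin ligase gene CBL, which directs EGFR to degradation, differed by -0.03 on its brightest probe set. Its 2 other probe sets above the floor went the other way, at 0.10 and 0.20. In the RAS-ERK cascade 6 of 11 genes had a probe set, with a median of 0.02, from HRAS at -0.18 to the scaffold KSR1 at 0.13. In the PI3K-AKT arm 6 of 10 had one, with a median of 0.00, from the kinase PDPK1 at -0.16 to the catalytic subunit PIK3CB at 0.12. On their brightest probe sets all 12 genes of both arms differed by less than 0.21, while other probe sets above the floor reached -0.36 for PDPK1 and -0.35 for AKT2.

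**Figure D4:**
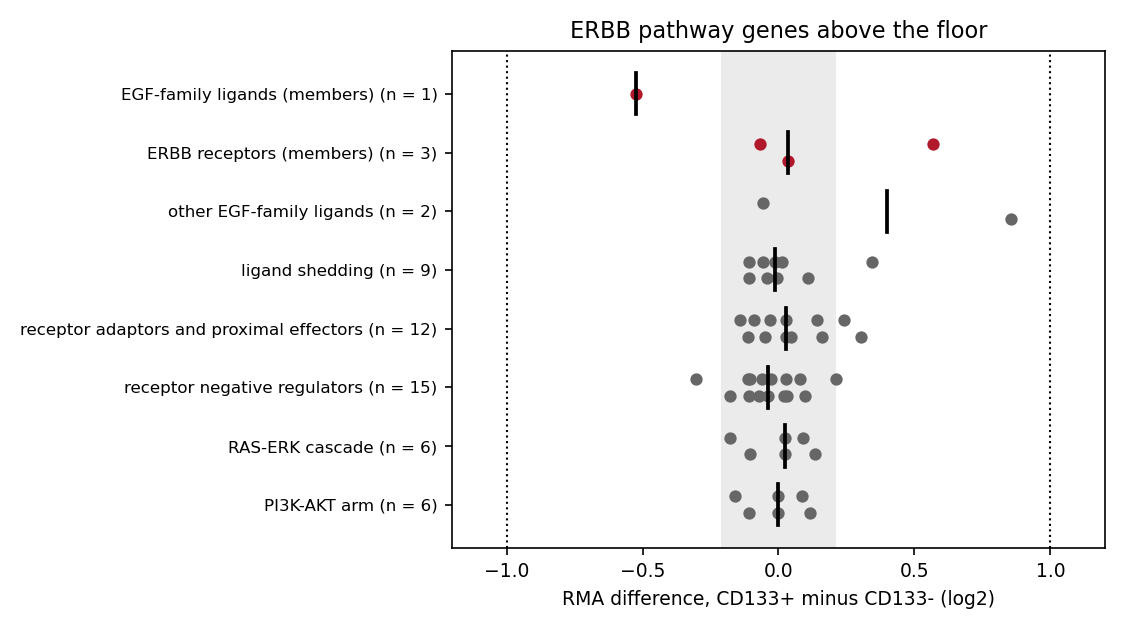
RMA difference (CD133+ minus CD133-, log2, horizontal axis) of each gene above the floor in the members (red) and the pathway lists (grey), 1 point per gene, offset up and down only to separate points. Black bars are list medians, the grey band is ±0.21, the SD between probe sets of 1 gene, and dotted lines mark 2-fold. Most pathway genes lie in the band. Outside it are EGFR (0.57), NRG1 (0.85), HBEGF (-0.53), RHBDF1 (0.34), SHC1 (0.31), SPRY4 (-0.30), CRKL (0.24) and, at its edge, LRIG3 (0.21). HBEGF was above the floor only in CD133- cells.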

How the data were processed

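Huh7 cells were sorted for CD133, and Trizol RNA of each population was amplified, labelled with biotin and hybridised, per the labels' protocols. The MAS5 columns hold linear signal intensity, per the labels and the deposited values, scaled to a common level (trimmed means of 500.1 on both arrays, 2% trimmed from each end). Log2 values fill the RMA columns, per the labels; they range from 1.33 to 14.2 as deposited. RMA corrects background, quantile-normalizes and fits probes of a set, so a shift of all genes between populations cannot be seen. The submitters' processing notes name MAS5, RMA and GCOS, without versions. RMA was the main scale.

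Genes were named from the platform annotation: 41097 probe sets had 1 symbol, 1801 several and 11777 none here. The Entrez numbers of 41043 were found in RefSeq, and these took the RefSeq symbol, whether or not it differed. The probe set with the highest mean RMA value stood for its gene. The text names every member, PROM1, the list genes of at least 2-fold or else each list's extremes, and the 3 genes nearest EGFR. Further list genes were named for their role or their several probe sets, chosen after their values were seen. Members and lists were chosen with earlier results of these data known. No test between populations was possible. Scripts were tested on simulated data. Alternatives were MAS5, the mean over probe sets, leaving out shared probe sets, other floors (none, and the 75th percentile), centring, 1.5-fold and agreement of both algorithms. The analysis used Python 3.11.15 and pandas 2.3.3.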

Additional observations from a re-analysis of the deposited data

How the results depend on the processing

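Over 23 results and 119 recomputed values, 106 stayed within the limits set (0.21 for a difference or median, 1.5 times for a count) and 13 did not. No paired analysis was possible because each population has 1 array. MAS5 moved the most: the difference became 4.10 for EGF, -1.42 for TGFA, -0.97 for EREG, -1.30 for HBEGF and -0.52 for ERBB4. The count of members at 2-fold became 1 in signals as measured, in place of 0. This was HBEGF, lower, and only 1.29-fold with the floor in place of its CD133+ signal. For the other EGF-family ligands MAS5 gave a median of -0.0015 over only 2 genes. Both were at 2-fold in signals as measured, in place of 0 (NRG1 higher, and NRG2 lower with its CD133+ signal below the floor). With the mean over probe sets the difference was 0.27 for EGFR, 0.26 for BTC and -0.17 for HBEGF. The median of the other ligands was -0.058 without shared probe sets, where only 1 gene, NRG2, remained. It was 0.14 over 4 genes with no floor. The main value of 0.40 is the midpoint of only 2 genes, NRG1 at 0.85 and NRG2 at -0.06. ERBB2 and ERBB3 stayed within the limits in all alternatives run for them. The mean over EGFR probe sets above the floor, 0.53, was an alternative chosen after seeing the data. At the 75th percentile floor no other EGF-family ligand remained. The cause of these moves was not tested. The number of arrays, 1 per population, limits the precision of every value, and signals below the floors have no reliable order.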

Other observations

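In the pathway lists, among genes with at least 2 probe sets above the floor, SHC1 and CRKL were those whose probe sets above it all differed in the same direction by more than 0.21. The 2 SHC1 probe sets were higher in CD133+ cells by 0.31 and 0.44. The 2 probe sets of CRKL, an SH2 and SH3 adaptor that links receptors to GAB1 and RAP1, were higher by 0.23 and 0.24. On the whole array, 6.21% of the 6042 genes with at least 2 probe sets above the floor were higher on all of them by this margin, and 4.65% were lower. SHC1 and CRKL made up a share of such list genes close to the array-wide share of higher genes. Their count is thus not particular to the lists. No gene of the 6 lists with at least 2 such probe sets was lower on all of them by this margin. These genes were picked after their values were seen.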
